A study of Arabidopsis thaliana with 4 samples.

Results

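CCA1, LHY and the REVEILLE (RVE) proteins are a small family of single-MYB-domain transcription factors in Arabidopsis thaliana, most of them made around dawn. CCA1 and LHY repress genes that peak later in the day and in the evening, while RVE8, RVE4 and RVE6 bind related promoter elements and, with the LNK coregulators, activate evening genes. The pseudo-response regulators (PRR9, PRR7, PRR5 and TOC1) are made in sequence through the day and repress CCA1 and LHY, and the evening complex of ELF3, ELF4 and LUX closes the loop at night. In seedlings this oscillator sets the daily timing of photosynthesis genes, growth and stress responses.

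The 10 members are CCA1, LHY and RVE1 to RVE8, found by their locus identifiers among the 27554 genes of the deposited table. RVE3 is listed there as ASG4, RVE4 as LCL1 and RVE7 as EPR1. Ribosome footprints, the mRNA pieces that ribosomes protect from nuclease, were counted in line 5 (labelled #5, constitutive overexpression of the chloroplast Clp ATPase ClpD in a wild-type background, n = 2 libraries) and in WT (n = 2 libraries). All were whole seedlings 6 days old, and only 1 overexpression line was analysed here, with its promoter not given in the sources used here. The hour of harvest and the light regime are not given there either, and no source used here says whether replicate libraries stem from different cultures, so the errors below cover the spread between these libraries, which may be technical. Footprint counts follow mRNA abundance as well as ribosome occupancy. In a whole seedling, fewer cells of a type and less RNA per cell cannot be told apart.

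The libraries held 42291527 and 38990360 counts for line 5, against 29772406 and 27260818 counts for WT. ClpD (AT5G51070, listed as ERD1) had 3112 and 3302 CPM (counts scaled by effective library size, with TMM) in line 5, against 167 and 175 CPM in WT, as its label says. Of the marker lists, 5 leaf photosynthesis genes summed to 34209 and 30480 CPM in line 5, against 40291 and 45463 CPM in WT. The 7 root markers summed to 1020 and 1006 CPM in line 5, against 842 and 1063 CPM in WT, nearly all from PYK10, while the endodermal CASP1 and the root hair genes EXPA7 and COBL9 stayed under 1 CPM in every library. SCR, another root marker, was lower, with 15.9 and 13.6 CPM in line 5, against 25.9 and 29.8 CPM in WT (log2 fold change -0.92). SHR and PHT1.1 overlapped between the groups. The 5 seed storage markers summed to 9.62 and 3.13 CPM in line 5, against 22.3 and 25.9 CPM in WT, and all 4 floral markers were under 1 CPM in every library. Most of the seed sum came from CRA1, except in replicate 2 of line 5, where CRA1 had 1.35 CPM. SESA1 overlapped, with 1.03 and 1.45 CPM in line 5, against 0.741 and 1.98 CPM in WT. The part of these shifts in the results below was not tested.

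Footprints on 9 of the 10 genes were less frequent in both line 5 libraries than in either WT library, and footprints on EPR1 (RVE7) were more frequent. The members were selected on their fold changes between line 5 and WT in these same libraries, so the fold changes are given with standard errors (SE) as a description and without a test. All 10 passed the filter on low counts, RVE2 only through the WT libraries, where it was higher. The median log2 fold change of the members was -2.24, and that of all 18737 genes tested was 0.0023. By edgeR's quasi-likelihood test with a Benjamini-Hochberg adjusted p under 0.05, 9 members were lower and 1 was higher, where 8.72% of all genes tested were lower and 6.72% higher. The libraries of the groups did not overlap for any of the 10 genes, as was so for 68.1% of all genes tested (33.4% lower and 34.7% higher in line 5). Nothing is read from these member counts.

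**Figure D1:**
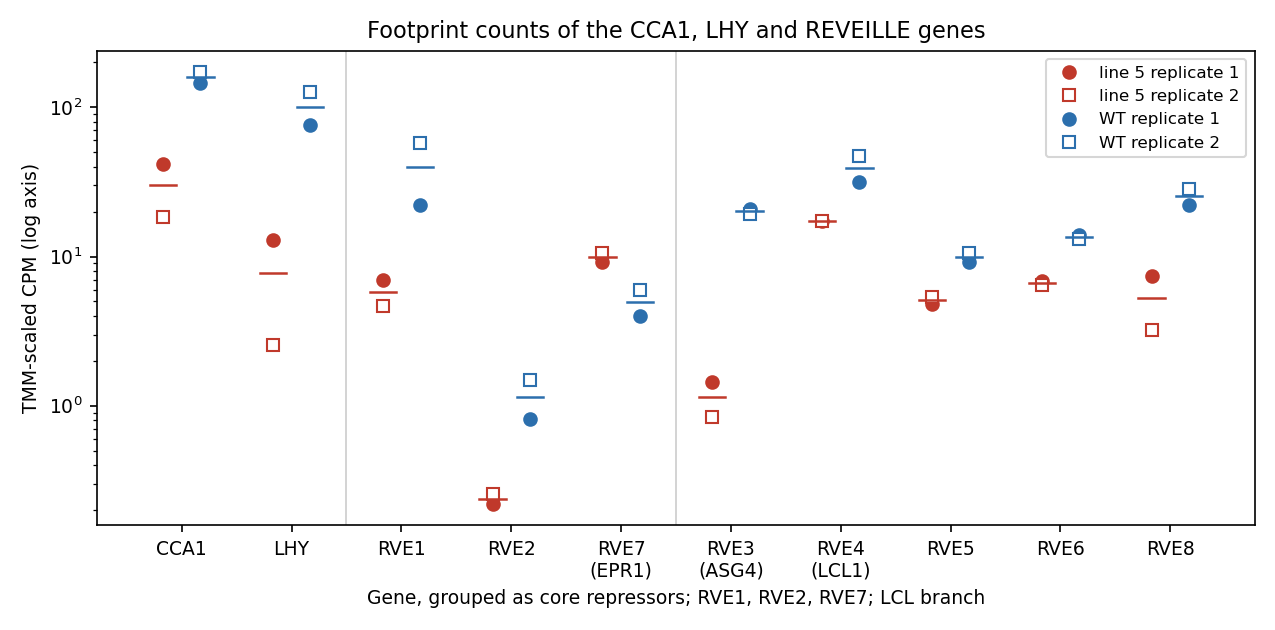
TMM-scaled CPM (log axis) of the 10 genes in each library, line 5 in red left of WT in blue, with circles for replicate 1, squares for replicate 2 and a bar at the mean. In 9 genes both line 5 points lie below both WT points, RVE7 (EPR1) is the exception, and the line 5 points of CCA1, LHY and RVE8 lie far apart.

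CCA1 (AT2G46830), the repressor that with LHY forms the morning arm of the clock, had the highest level per length of the family in WT. It had 41.8 and 18.5 CPM in line 5, against 147 and 172 CPM in WT, a log2 fold change of -2.40 (SE 0.398). LHY (AT1G01060), its closest partner, had 12.9 and 2.57 CPM in line 5, against 75.6 and 127 CPM in WT (log2 fold change -3.70, SE 0.777). In both genes replicate 2 of line 5 was the lowest library and replicate 2 of WT the highest. The raw counts behind LHY were 587 and 110 in line 5, against 2145 and 3072 in WT. Without replicate 1 of line 5 the log2 fold change was -5.30 for LHY and -3.10 for CCA1, and without replicate 2 of line 5 it was -2.97 for LHY and -1.93 for CCA1. The 2 genes together had 54.7 and 21.1 CPM in line 5, against 222 and 298 CPM in WT.

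RVE1, RVE2 and RVE7 lack the LCL domain of the activating branch, and they did not move as a set. RVE1 (AT5G17300), which links the clock to auxin synthesis, had 6.93 and 4.62 CPM in line 5, against 22.0 and 57.4 CPM in WT. Its log2 fold change was -2.78 (SE 0.508), and -1.93 without replicate 2 of WT, the library that was high. RVE2 (AT5G37260, also called CIR1), a clock-regulated gene whose overexpression is known to disturb rhythms, was close to the detection limit, with 10 and 11 counts in line 5, against 23 and 36 counts in WT. That is 0.220 and 0.257 CPM in line 5, against 0.811 and 1.49 CPM in WT (log2 fold change -2.24, SE 0.461).

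EPR1 (RVE7, AT1G18330), first described as an early phytochrome-responsive gene, ran the other way. It had 9.20 and 10.5 CPM in line 5, against 3.98 and 5.94 CPM in WT, which is 1.99-fold (log2 fold change 0.99, SE 0.228). Both line 5 libraries lay above both WT libraries, and the log2 fold change was between 0.73 and 1.31 with any 1 library left out. The counts were 418 and 450 in line 5, against 113 and 144 in WT. AT3G10113, another homeodomain-like gene, was listed at 0 counts in all 4 libraries, and whether reads of similar copies were assigned to EPR1 was not tested.

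The LCL branch (RVE3, RVE4, RVE5, RVE6 and RVE8) split into RVE3 and RVE8 with larger differences and RVE4, RVE5 and RVE6 with smaller ones. RVE3 (ASG4, AT1G01520) had 1.43 and 0.841 CPM in line 5, against 20.9 and 19.3 CPM in WT, the lowest log2 fold change of the family at -4.13 (SE 0.262), or 17.6-fold lower. Its counts were 65 and 36 in line 5, against 592 and 467 in WT, and the WT libraries were close to each other. RVE3 overlaps AN (AT1G01510) in the reference annotation, and whether counting used strand is not stated. AN itself had 25.8 and 26.5 CPM in line 5, against 28.3 and 28.4 CPM in WT (log2 fold change -0.12, edgeR adjusted p = 0.444).

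RVE8 (AT3G09600), the best studied activator of evening genes, had 7.42 and 3.20 CPM in line 5, against 22.3 and 28.2 CPM in WT. Its log2 fold change was -2.25 (SE 0.406), with -2.98 without replicate 1 of line 5 and -1.76 without replicate 2 of line 5. As with CCA1 and LHY, replicate 2 of line 5 was the lowest library and replicate 2 of WT the highest.

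RVE4, RVE6 and RVE5, of which RVE4 and RVE6 act redundantly with RVE8, had about 1.94-fold to 2.27-fold fewer footprints in line 5. RVE4 (LCL1, AT5G02840) had 17.3 and 17.4 CPM in line 5, against 31.7 and 47.0 CPM in WT (log2 fold change -1.18, SE 0.207). RVE6 (AT5G52660) had 6.82 and 6.45 CPM in line 5, against 14.0 and 13.1 CPM in WT (-1.03, SE 0.125). RVE5 (AT4G01280) had 4.80 and 5.37 CPM in line 5, against 9.20 and 10.6 CPM in WT (-0.96, SE 0.155). In these genes the line 5 libraries lay close together, and the spread of RVE4 came from WT. RVE5 and RVE1 also overlap other listed genes: the log2 fold change of AT4G01290 was -0.10 (SE 0.115), and AT5G17305 had at most 2 counts in a library. The authors' deposited table gives log2 fold changes of -3.91 for RVE3, -3.47 for LHY, -0.72 for RVE5 and 1.24 for EPR1, with the same sign as here for every member. For every member the authors' value was also higher than the edgeR value, as with RVE5 (-0.72 against -0.96).

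**Figure D2:**
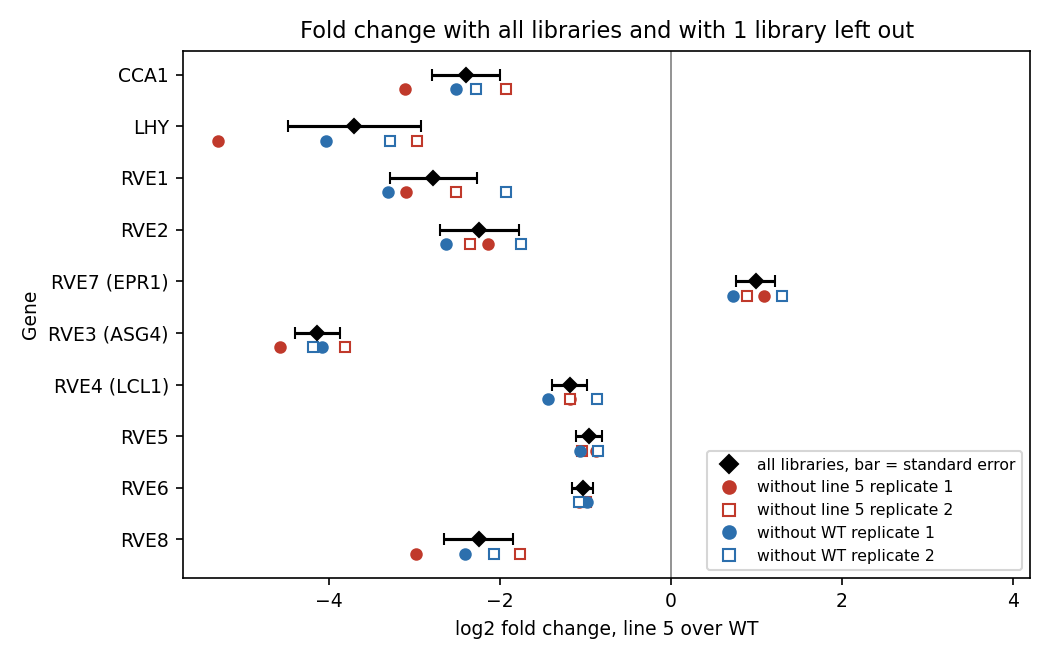
Log2 fold change of each gene, line 5 over WT, with all libraries (black diamond, bar = SE) and with 1 library left out (red for a line 5 library, blue for a WT library). LHY spans -5.30 to -2.97 and RVE6 spans -1.07 to -0.98, and no gene changes sign.

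Levels can be compared between genes only per length, for which the authors' FPKM (fragments scaled by gene length and library total) was used. Whether the order is the same per coding length was not tested. In line 5 the order by mean was RVE4, CCA1, RVE7, RVE6, RVE8, RVE5, RVE1, LHY, RVE3 and RVE2. In WT it was CCA1, LHY, RVE4, RVE1, RVE8, RVE3, RVE6, RVE5, RVE7 and RVE2. RVE4 led in line 5 with 20.5 and 20.9 FPKM, where CCA1 had 24.2 and 10.9 FPKM, so the first 2 places overlapped. In WT, CCA1 had 75.1 and 82.0 FPKM and lay above LHY, with 36.6 and 57.2 FPKM, beyond the spread of their libraries. EPR1 was at rank 3 by mean level in line 5 (9.21 and 10.7 FPKM), against rank 9 in WT (3.54 and 4.92 FPKM). In line 5 the libraries of neighbours did not overlap only from CCA1 to RVE7, from RVE7 to RVE6 and from RVE3 to RVE2, so adjacent ranks from RVE6 to RVE3 are not resolved. Across wider steps, RVE6 lay wholly above RVE5, RVE1 and RVE3, and RVE8, RVE5 and RVE1 lay wholly above RVE3. In WT the neighbours from LHY to RVE8 overlapped, and those from RVE8 down to RVE2 did not.

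The makeup of the family differed along with its total. The 10 genes summed to 90.5 and 66.6 FPKM in line 5, against 235 and 302 FPKM in WT. CCA1 and LHY held 34.5% and 18.5% of that sum in line 5, against 47.6% and 46.1% in WT, while EPR1 held 10.2% and 16.1% in line 5, against 1.51% and 1.63% in WT. The LHY to CCA1 ratio of FPKM was 0.292 and 0.131 in line 5, against 0.487 and 0.698 in WT. Within the activating branch the RVE4 to RVE8 ratio of FPKM was 2.36 and 5.36 in line 5, against 1.42 and 1.65 in WT. None of these ratios overlapped between the groups. They are built from the values on which the members were selected, so nothing further is read from that.

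**Figure D3:**
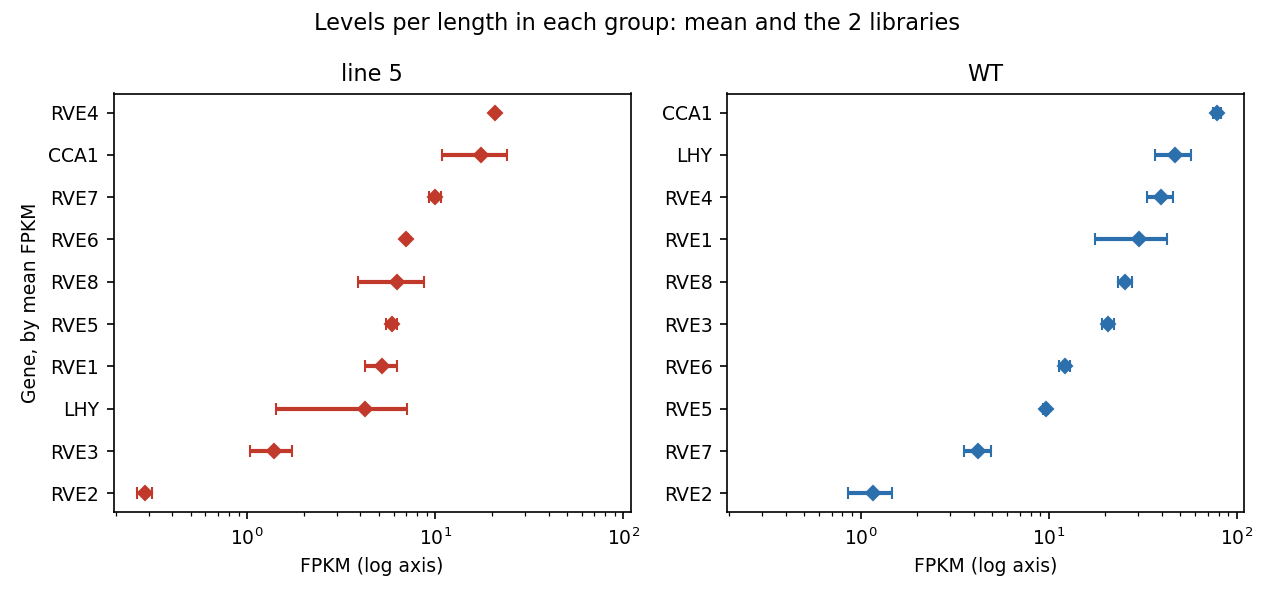
FPKM (log axis) of the 10 genes in line 5 (left) and WT (right), ordered by mean within each group, where the diamond is the mean and the line joins the 2 libraries. RVE4 and CCA1 overlap at the top of line 5, and CCA1 stands alone at the top of WT.

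The 2 libraries of a group differed in their clock genes, which is a measure that did not enter the choice of members. In line 5, LHY was 5.03-fold higher in replicate 1 than in replicate 2, and only 0.0232% of the 12918 tested genes with a mean of at least 5 CPM had a larger difference between these libraries. CCA1 was 2.26-fold and RVE8 2.32-fold higher in line 5 replicate 1, with 0.434% and 0.418% of genes differing more. RVE4 differed 1.00-fold, RVE6 1.06-fold and RVE5 1.12-fold between the same libraries. In WT, replicate 2 was higher than replicate 1 for 8 of the 10 genes, with RVE1 2.60-fold higher (1.17% of genes differed more) and LHY 1.68-fold higher.

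CCA1 and LHY were lower in replicate 2 than in replicate 1 of line 5 and higher in replicate 2 of WT, and most but not all genes with later peaks ran the other way. Of the 10 pseudo-response regulator and evening genes, 9 were higher in replicate 2 than in replicate 1 of line 5, and 8 were lower in replicate 2 than in replicate 1 of WT. The exceptions were PRR9 in line 5 and PRR3 and BOA in WT, where each had at most 4 counts in a library. The signs in the 2 groups were opposite for 7 of the 10 (70%), against 54.6% of the 12918 genes. The evening output genes GRP7 and GRP8 were higher in replicate 2 of both groups. All 4 LNK genes were lower in replicate 2 of line 5, and 3 of the 4 were higher in replicate 2 of WT. Over the 12918 genes, 6215 were higher in replicate 2 of line 5 and 6315 were lower in replicate 2 of WT. PRR5, a repressor of CCA1 and LHY made in the afternoon, had 1.28 and 11.4 CPM in the line 5 libraries, against 0.811 and 0.206 CPM in those of WT. No one of the 12918 genes differed more between the line 5 libraries than PRR5 did (0% of them). PRR5 itself is not among them, since its mean over the 4 libraries was under 5 CPM, so it is set against genes of higher level. Whether the libraries were harvested at different hours was not tested.

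**Figure D4:**
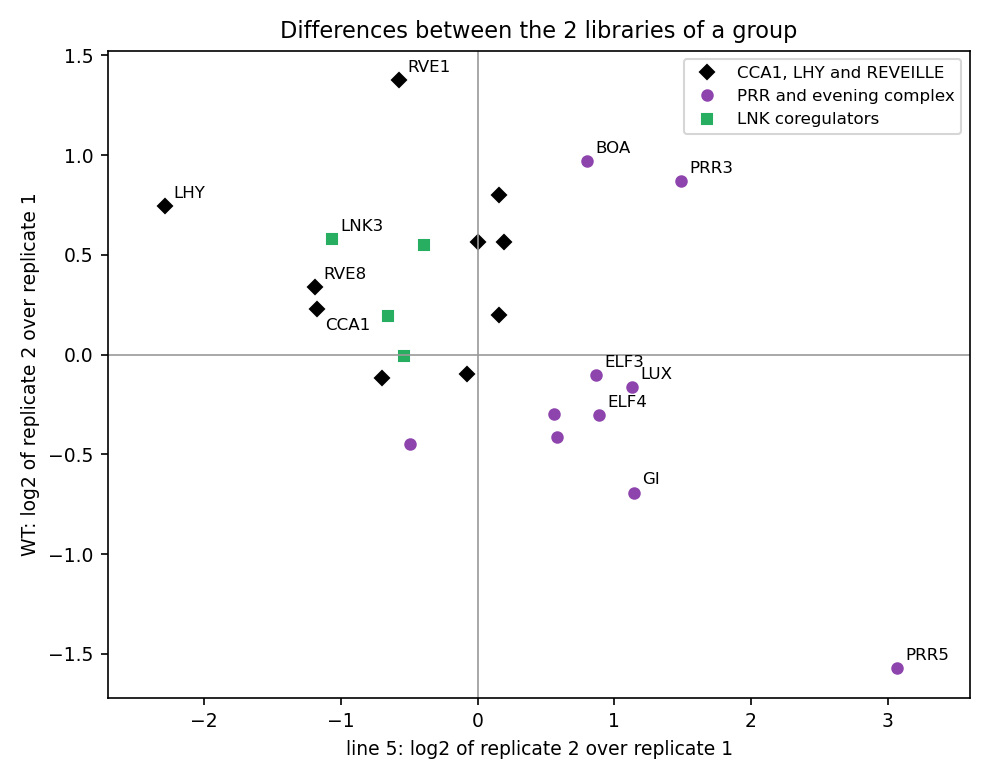
Log2 ratio of replicate 2 over replicate 1 in line 5 (x axis) and in WT (y axis), with 0.1 CPM added to each value, for the CCA1, LHY and REVEILLE genes, the pseudo-response regulator and evening genes and the LNK genes. LHY, CCA1, RVE8 and LNK3 lie at upper left and PRR5 and GI at lower right.

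The rest of the clock was described by 5 lists, 51 of whose 53 genes were tested. The lists were chosen with earlier results of these data known, so counts over them are a description. In line 5, 4 of the 51 tested genes rose and 15 fell (edgeR, Benjamini-Hochberg adjusted over all genes tested), where 6.72% of all genes rose and 8.72% fell. DESeq2 called 11 higher and 17 lower. Without replicate 1 of line 5 edgeR called 1 higher and 1 lower, without replicate 2 of line 5 it called 0 and 0 (of all genes tested it then called 25 higher and 3 lower), and without replicate 1 of WT 8 and 17. No member changed sign with any 1 library left out. Calls on the members are not read here, since the members were selected on this contrast. With a line 5 library left out only the WT pair gives a spread.

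All 4 LNK coregulators, partners of RVE8 and RVE4 at evening gene promoters, fell in line 5. LNK3 (AT3G12320) had 21.9 and 10.4 CPM in line 5, against 69.6 and 104 CPM in WT (log2 fold change -2.42, SE 0.406, edgeR adjusted p = 0.0275). Its log2 fold change was -3.06 without replicate 1 of line 5 and -1.98 without replicate 2 of line 5. LNK2 (AT3G54500) had 21.7 and 13.8 CPM in line 5, against 52.9 and 60.4 CPM in WT (-1.67, SE 0.239, adjusted p = 0.0225). LNK4 fell by 1.65 and LNK1 by 1.37 on the log2 scale. The median over the list was -1.66, against 0.0023 over all genes tested.

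Of the 10 pseudo-response regulators and evening genes, 9 were tested, 1 rose and 1 fell. PRR9 (AT2G46790), the earliest of the pseudo-response regulators in the day, had 9.99 and 7.05 CPM in line 5, against 29.1 and 21.3 CPM in WT (log2 fold change -1.57, SE 0.239, adjusted p = 0.0246). ELF4 (AT2G40080), a small subunit of the evening complex, had 2.75 and 5.19 CPM in line 5, against 0.635 and 0.495 CPM in WT (2.79, SE 0.427, adjusted p = 0.0246). Both calls were lost without either line 5 library, where PRR9 had -1.84 and -1.33 and ELF4 3.18 and 2.27, without replicate 1 and without replicate 2. The libraries of the groups did not overlap for any of the 10 genes, with PRR9 lower and the other 9 higher in line 5, where 34.7% of all genes tested were higher in this way. LUX (AT3G46640, listed as PCL1), the DNA-binding subunit of the evening complex, had 8.19 and 18.1 CPM in line 5, against 4.27 and 3.80 CPM in WT (1.70, SE 0.405, adjusted p = 0.0515; 1.02 without replicate 2 of line 5). For ELF3 (AT2G25930), its scaffold, the log2 fold change was 1.32 (SE 0.318, adjusted p = 0.0522). Neither was called in the main edgeR fit, while DESeq2 and an edgeR fit without the filter on low counts called both. TOC1 had 0.55 (SE 0.256), PRR7 0.90 (SE 0.224), GI 1.06 (SE 0.434) and PRR5 3.59 (SE 1.25), and none was called in the main edgeR fit. Without replicate 2 of line 5 GI had 0.38 and PRR5 1.29, and PRR5 had 4.91 without replicate 1 of WT. DESeq2 called PRR7 and GI, and an edgeR fit without the filter on low counts called PRR7. PRR3 had 5 and 21 counts in line 5, against 0 and 2 counts in WT, and was not tested.

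The next list held genes that act on clock proteins after translation. Of its 10 tested genes for clock F-box proteins, casein kinase subunits that phosphorylate CCA1, and DET1, 0 rose and 1 fell, against 15.4% called in either direction over all genes tested. It was ZTL (AT5G57360), the F-box protein that targets TOC1, with 29.5 and 29.0 CPM in line 5, against 38.4 and 41.4 CPM in WT (log2 fold change -0.45, SE 0.103, edgeR adjusted p = 0.0478), a call lost without replicate 2 of WT, without either line 5 library and without the filter on low counts. CKB3, a regulatory kinase subunit, had 0.38 (SE 0.115, adjusted p = 0.0840) and CKA2, a catalytic subunit, 0.31 (SE 0.102, adjusted p = 0.0963).

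Among 12 upstream regulators, 1 rose and 2 fell. HY5 (AT5G11260), the light-signalling bZIP factor, had 4.64 and 3.71 CPM in line 5, against 9.63 and 11.3 CPM in WT (log2 fold change -1.32, SE 0.183, adjusted p = 0.0221). BBX32 (AT3G21150), a B-box factor of light signalling, had 2.33 and 1.12 CPM in line 5, against 6.66 and 11.8 CPM in WT (-2.41, SE 0.449, edgeR adjusted p = 0.0327). The log2 fold change of BBX32 was -3.03 without replicate 1 of line 5 and -1.98 without replicate 2 of line 5. PIF3 (AT1G09530), a phytochrome-interacting factor, had 28.3 and 30.6 CPM in line 5, against 18.4 and 12.8 CPM in WT (0.92, SE 0.196, adjusted p = 0.0412). The CCA1 activator LWD1 had 0.23 (SE 0.110, adjusted p = 0.196), and HSFB2B, a heat shock factor known to repress PRR7, had 0.26 (SE 0.165, adjusted p = 0.319). CHE, a repressor of CCA1, had 0.10 (SE 0.145) and overlapped between the groups.

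Of 16 tested output genes, 2 rose and 7 fell. The dawn-phased CONSTANS relatives COL2 and COL1 had the largest decreases among the called genes of this list. COL2 (AT3G02380) had 16.3 and 6.94 CPM in line 5, against 96.0 and 186 CPM in WT (log2 fold change -3.60, SE 0.536, edgeR adjusted p = 0.0235). Its log2 fold change was -4.35 without replicate 1 of line 5 and -3.11 without replicate 2 of line 5. COL1 (AT5G15850) fell by 2.25 (SE 0.254) and CDF1, a morning DOF repressor of flowering, by 1.59 (SE 0.232). The cold-response activators CBF1 and CBF2 fell by 1.87 (SE 0.337) and 1.60 (SE 0.227), though they are tandem copies of similar sequence with CBF3, so that reads may be split. The antenna gene CAB2 (LHCB1.1), also one of several near-identical copies, fell by 1.03 (SE 0.139) and PIF5, a growth-promoting factor, by 0.64 (SE 0.122).

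The 2 output genes that rose are both known as RVE1 targets. Whether RVE1 had a part in either rise was not tested. YUC8 (AT4G28720), an auxin synthesis gene, had 11.0 and 12.2 CPM in line 5, against 2.93 and 3.14 CPM in WT (log2 fold change 1.94, SE 0.150, adjusted p = 0.0109). PORA (AT5G54190), which makes chlorophyllide during greening, had 82 and 76 counts in line 5, against 25 and 19 in WT (2.14-fold, adjusted p = 0.0460), and was called neither by DESeq2 nor with any 1 library left out. CAT3, an evening-phased catalase, had 1403 and 1934 CPM in line 5, against 1001 and 775 CPM in WT (0.91, SE 0.215, adjusted p = 0.0505). GRP7, an RNA-binding protein with an evening peak that CCA1 is known to affect, had 105 and 489 CPM in line 5, against 37.9 and 39.0 CPM in WT (2.95, SE 0.729, adjusted p = 0.0552; 1.45 without replicate 2 of line 5 and 3.67 without replicate 1). Neither was called in the main edgeR fit, while DESeq2 and an edgeR fit without the filter on low counts called both.

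**Figure D5:**
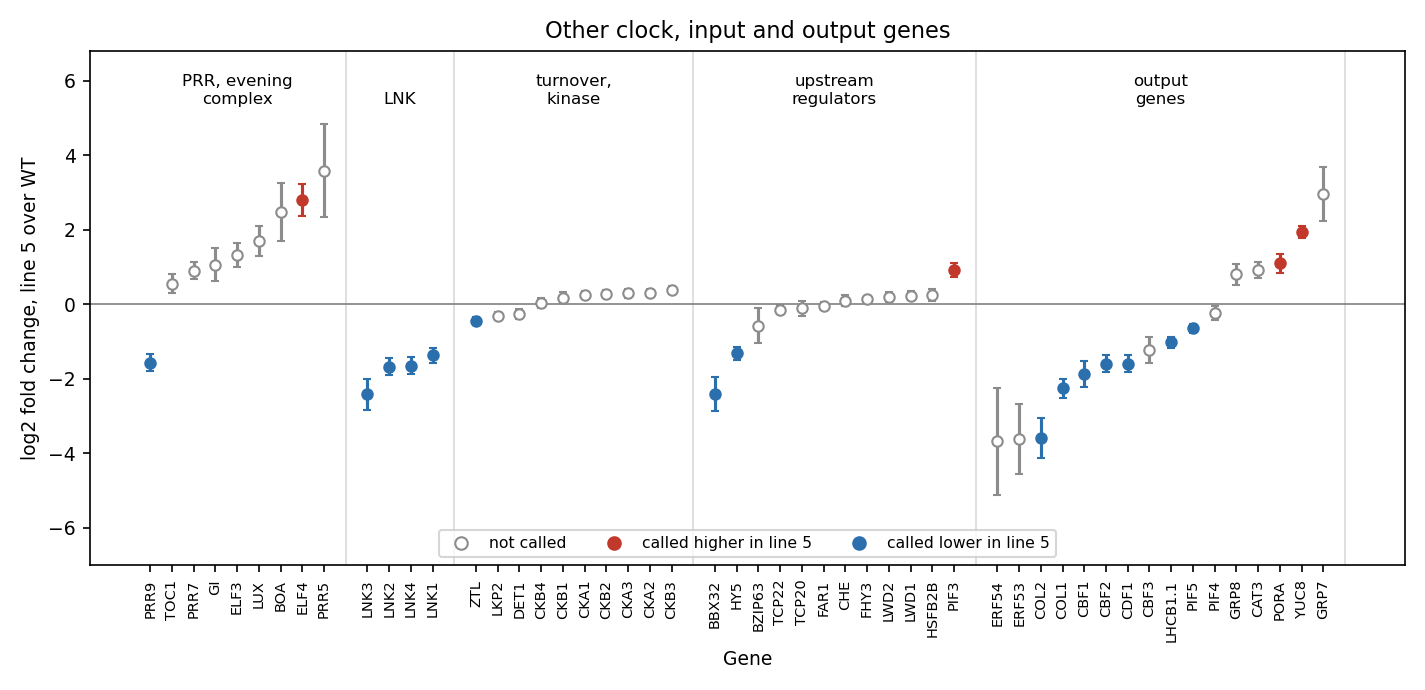
Log2 fold change, line 5 over WT, of the 51 tested genes of 5 clock lists, with SE as bars, filled red where called higher, filled blue where called lower and open where not called. The 4 LNK genes are all lower, and ELF4 is the called gene with the highest value at 2.79.

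The genes closest to CCA1 in profile were found by the Euclidean distance between centred log2 CPM values over the 4 libraries, among 12909 non-members of at least 5 CPM. They were cPT4 (AT5G58770, distance 0.192), LNK3 (AT3G12320, 0.260) and AT1G22190 (0.312), annotated as an integrase-type DNA-binding protein. cPT4 had 29.7 and 14.7 CPM in line 5, against 103 and 140 CPM in WT. Its wide gap between the line 5 libraries, like that of CCA1, follows from the choice by profile. The closest to EPR1 were UGT85A1 (AT1G22400, distance 0.0970), the sugar transporter-like ERD6 (AT1G08930, 0.105) and AT4G04940 (0.123), a WD-40 repeat protein. UGT85A1 had 44.1 and 52.8 CPM in line 5, against 19.9 and 27.4 CPM in WT.

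Close neighbours on a chromosome did not always share a direction. CCA1 and PRR9 lie on the same chromosome with 3 annotated genes between them, and both were lower in line 5. RVE4 and PRR7 have 4 annotated genes between them, and RVE4 was lower in line 5 (log2 fold change -1.18), while PRR7 had 34.5 and 50.8 CPM in line 5, against 25.3 and 20.6 CPM in WT (0.90, SE 0.224, adjusted p = 0.0563).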

How the data were processed

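Ribo-seq was done on 4 libraries of seedlings. The authors deposited 1 table of counts and FPKM per gene and library, mean FPKM, a log2 fold change, and p-values with an FDR, per the file headers. Their log2 fold change is the log2 ratio of mean FPKM values, as checked on the deposited table, and their p-values were not used. Reads were processed with STAR, RSEM, Bowtie2, fastp and DESeq2 on TAIR10, per the submitters' processing notes, which give no roles or versions. RSEM estimates counts, and the deposited ones are whole numbers; strand use is not given in the sources used here. The 5 rows without an identifier (0.0145% to 0.0340% of counts) were left out.

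Counts were tested with edgeR 4.0.16 in R 4.3.3: filterByExpr with a minimum count of 10, TMM, a quasi-likelihood fit on group, two-sided tests and Benjamini-Hochberg adjustment over 18737 genes with a threshold of 0.05, tested on simulated data. The SE is the log2 fold change over the square root of F. DESeq2 1.42.0, RLE scaling, other filters, a replicate block and left-out libraries were alternatives. Libraries of a group differed beyond sampling noise (chi-square over its degrees of freedom, 25.7 in line 5 and 39.0 in WT). A floor of 3 counts is 0.0660 to 0.124 CPM.

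The members, lists, alternatives and naming rule were chosen with earlier results of these data known. The rule names the members, each called list gene, the 2 smallest uncalled p-values per list and the 3 nearest profiles to CCA1 and EPR1; other genes named were chosen after their values were seen. Names follow the RefSeq table of TAIR10.1, which held 27444 of 27554 identifiers; no coordinates are printed because the build name differs. Sequences were not used here.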

Additional observations from a re-analysis of the deposited data

How the results depend on the processing

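No member changed sign under any alternative. RLE scaling and DESeq2 left 9 members lower and 1 higher, and the stricter filter (30 counts) left out RVE2. With the replicate number as a block edgeR called 286 genes higher and 457 lower, against 1260 and 1633 without it. Of the other clock genes it called 2 and 7, against 4 and 15, and of the members RVE3 and RVE6. Since the members were selected on this contrast, nothing is read from calls on them under any alternative. No source used here says whether equal replicate numbers pair the samples. The replicate differences of the 2 groups correlated at -0.117 over all genes, which cannot settle it. With the WT numbers crossed, an alternative chosen after seeing the data, the calls were 1530 higher and 2067 lower, and 10 and 15 of the other clock genes. DESeq2 called 11 other clock genes higher and an unfiltered fit 9. With 1 library left out, the calls over all genes ranged from 25 to 2197 higher and from 3 to 2904 lower, and those over the other clock genes from 0 to 8 higher and from 0 to 17 lower. The fewest calls came with a line 5 library left out, where the WT pair alone gives the spread (SD of the log2 difference between libraries 0.344 in line 5 and 0.512 in WT). Counts per coding length and a search for a shared protein motif were not run, since no sequences were used here. Depth limits RVE2 most, with 10 and 11 counts in line 5.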

Other observations

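ERF53 (AT2G20880) and ERF54 (AT4G28140), AP2-type factors that RVE4 and RVE8 are known to induce after heat, had few footprints in line 5 and unequal WT libraries. ERF53 had 1.30 and 0.888 CPM in line 5, against 23.3 and 3.51 CPM in WT (log2 fold change -3.62, SE 0.940, edgeR adjusted p = 0.0611). ERF54 had 0.616 and 0.981 CPM in line 5, against 19.6 and 0.619 CPM in WT (-3.67, SE 1.43, adjusted p = 0.139). Neither was called with all libraries. Without WT replicate 2 both were called (log2 fold change -4.40 for ERF53 and -4.62 for ERF54). Without WT replicate 1, the high library, ERF53 had -1.68 and was called, while ERF54 had 0.36 and was not, so that its direction turned. Neither was called without either line 5 library, and ERF53 was also called by DESeq2 and without the filter on low counts. Only 0.00774% of the 12918 genes of at least 5 CPM differed more between the WT libraries than ERF54 did. FKF1 (AT1G68050), an F-box protein of the afternoon, had 12 and 124 counts in line 5, against 8 and 2 counts in WT. The ratio of its summed, scaled counts was 8.10 (95% exact binomial interval 4.27 to 17.3, counting error only), and it was carried by replicate 2 of line 5.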
